A study of Homo sapiens with 20 samples.

Results

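Homologous recombination and interstrand crosslink repair were followed through 39 listed genes in MDA-MB-231 cells, an established basal-type, triple-negative breast cancer line, after treatment with cisplatin (Cis), with the copper chelator ammonium tetrathiomolybdate (TM) or with both drugs (Cis/TM). The members were taken from that list of symbols, and no measured value enters the rule, although the list itself was drawn up with earlier results of these data known. Of the 39, 35 were measured among the 18417 genes tested. RBBP8, FANCA and FANCD2 were not analysed here, and RAD51D was left out because its transcript cluster carries several gene symbols. Gene expression was measured on 20 Affymetrix Human Gene 1.0 ST arrays in 7 groups. Cells received 36 µM cisplatin (Cis 12 h and Cis 24 h, 3 arrays each), 10 µM TM (TM 12 h, 2 arrays, and TM 24 h, 3 arrays) or both drugs at these doses (Cis/TM 12 h and Cis/TM 24 h, 3 arrays each), and were harvested 12 or 24 hours after treatment. The Control group, which received vehicle, holds 3 arrays whose labels give no harvest time, so the same 3 arrays serve as the reference at both times and every comparison with Control shares them. All 7 groups come from the same line, for which the labels name no engineered allele.

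Cisplatin joins bases within and between DNA strands, and a crosslink between the strands blocks replication. The Fanconi proteins recognise the stalled fork, the core complex attaches ubiquitin to FANCI and its partner, and nucleases then cut the crosslink out, which leaves a broken end. Homologous recombination repairs that end from the sister chromatid: the MRE11 complex and BRCA1 prepare it, a recombinase filament kept stable by its paralogs invades the intact copy, and helicases, topoisomerases and nucleases separate the joined molecules. Breast tumors that lack parts of this system are known for their response to platinum drugs.

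Values are log2 expression from robust multi-array averaging (RMA). A call, up or down, required a change of more than 1.5-fold, that is 0.585 on the log2 scale, and a limma p below 0.05 after adjustment over all 18417 genes. Markers of the line were read over all 20 arrays: VIM, CD44, CAV1, AXL and MSN lay between the 91.79 and 99.53 percentile of all genes, while ESR1, PGR and CDH1, which mark luminal cells, lay between the 9.44 and 16.62 percentile. FOXA1 and GATA3, also luminal, were not low by this measure, at the 56.28 and 52.77 percentile. Array medians ran from 5.71 to 5.94, and the lowest correlation of an array with another of its group was between 0.983 and 0.997. The mean of the 35 members was 7.15 to 8.0 over the arrays. It was lowest on array A of Cis 12 h, and the results that turn on that array are marked. RNA came from whole cultures, so fewer cells of a kind, or in a phase of the cycle, and less RNA per cell cannot be told apart. The study's methods name treatment in triplicate in multi-well plates and do not say whether the wells were independent cultures. The p-values therefore measure the spread between these samples, which may be technical.

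Repair genes were called up far more often than down under every treatment at 24 h and under TM at both times, while Cis and Cis/TM at 12 h gave calls in both directions. At 12 h of Cis, 7 of the 35 members were called up and 5 down, against 14.8% and 10.8% of all genes. At 24 h of Cis, 14 were up and 1 was down, against 11.5% and 4.9%. TM raised 13 and lowered 1 at 12 h, against 8.99% and 3.11% of all genes, and raised 10 and lowered none at 24 h, against 5.16% and 2.55%. Cis/TM raised 9 and lowered 3 at 12 h, against 15.2% and 8.55%, and raised 14 and lowered none at 24 h, against 4.54% and 2.48%. The shares of members were 20% up and 14.3% down for Cis 12 h, 40% up for Cis 24 h, 37.1% up for TM 12 h, 28.6% up for TM 24 h, 25.7% up and 8.57% down for Cis/TM 12 h, and 40% up for Cis/TM 24 h.

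**Figure D1:**
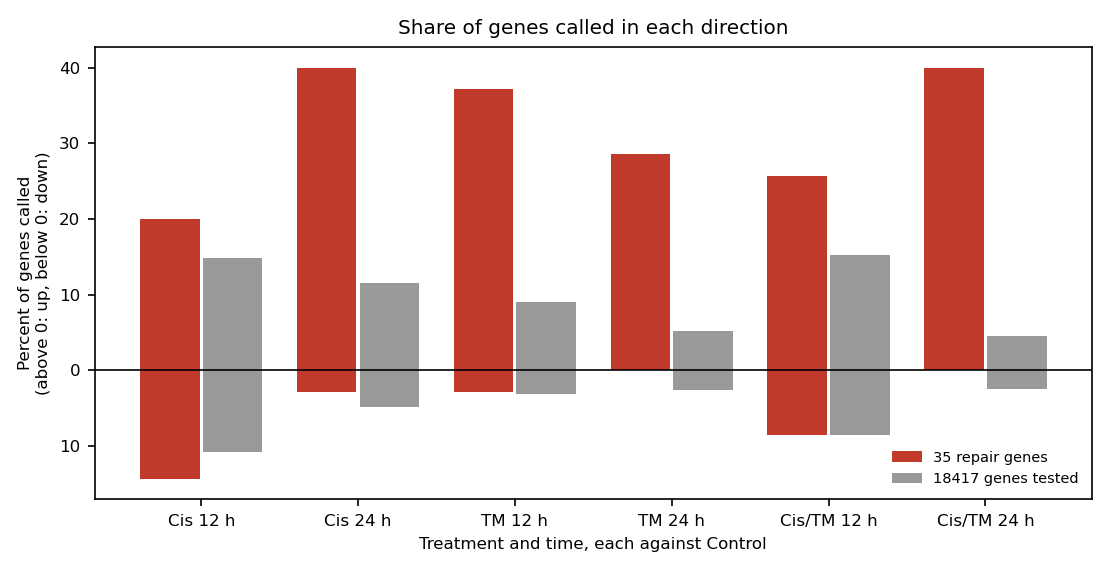
Percent of genes called up (positive direction) and down for each of the 6 comparisons with Control, with the 35 repair genes beside all 18417 genes tested. At Cis/TM 24 h, 40% of the repair genes and 4.54% of all genes were up, while at Cis 12 h the shares up were 20% and 14.8%.

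The median log2 change of the members was 0.05 for Cis 12 h, 0.48 for Cis 24 h, 0.42 for TM 12 h, 0.35 for TM 24 h, 0.14 for Cis/TM 12 h and 0.53 for Cis/TM 24 h, where the median of all genes lay between -0.05 and 0.00. Brighter genes were called more often on these arrays and 32 of the 35 members have a mean value above the median of all genes, so the same shares were read over the 9208 genes above that median, a comparison added after the values were seen. Of those genes 25.7% were up and 16.1% down at Cis 12 h, and 27% and 11.1% at Cis/TM 12 h, so the members' 20% and 25.7% up are no larger than in bright genes. At the other comparisons the shares up of bright genes were 21.1% (Cis 24 h), 16.8% (TM 12 h), 9.61% (TM 24 h) and 8.29% (Cis/TM 24 h), each below the share of the members.

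The scaling of the arrays matters for the counts at 12 h. With each array centred on its median, the median of all genes at Cis 12 h moved from -0.01 to -0.16, that at Cis/TM 12 h from -0.05 to -0.16 and that at Cis 24 h from -0.03 to -0.12. The members then split into 5 up and 10 down at Cis 12 h, 9 up and 2 down at TM 12 h and 9 up and 1 down at TM 24 h. Quantile normalization gave 5 up and 7 down at Cis 12 h and 7 up and 1 down at TM 12 h. With the trend against mean level taken out, there were 5 up and 7 down at Cis 12 h, 8 up and 1 down at TM 12 h, and 7 up and 4 down at Cis/TM 12 h. Under these 3 settings the median of the members at Cis 12 h was -0.11, -0.13 and -0.14, so its sign is not settled, and at Cis/TM 12 h it was 0.03, -0.04 and -0.03. At 24 h it lay between 0.22 and 0.51 over the 3 treatments and 3 settings.

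HROB, RAD54L, TOP3A, FANCG and DCLRE1B were up in all 6 comparisons, and EME1 and FANCB in 5 of them, where 1.53% of all genes were up in all 6 and 3.95% in 5 or more. RAD51B, FANCI and BRIP1 were up in some comparisons and down in others, as were 0.662% of all genes. NBN, BARD1, PALB2, RAD51C, XRCC3, RAD52, RMI2, MUS81, SLX4, GEN1, FANCF, FANCL and DCLRE1A, 13 in all, were called in none, as were 65.7% of all genes, and no member was down in 5 or more, where 0.945% of all genes were. The 6 comparisons share the 3 Control arrays, so these patterns are descriptions and a call in one is not independent of a call in another. The group with the highest mean was Cis/TM 24 h for 15 members and Cis 24 h for 10, and the group with the lowest was Control for 17 and Cis 12 h for 15. These counts were not made over all genes, so they are not read as a trait of the members. Of the 9208 bright genes, 6211 had a positive change against Control at Cis 24 h and 6108 at Cis/TM 24 h.

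**Figure D2:**
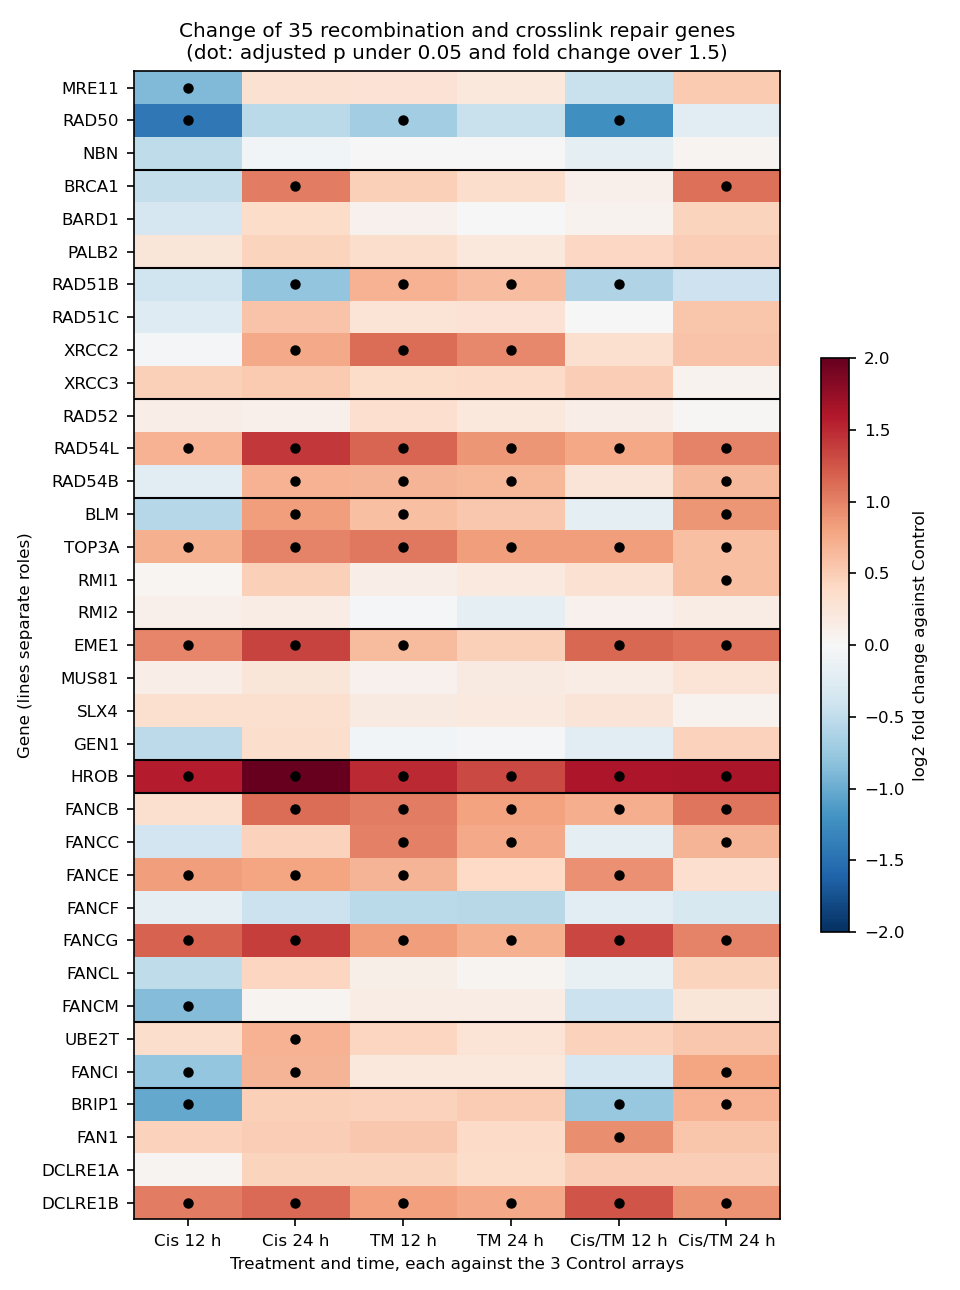
Log2 fold change of each of the 35 members (rows, grouped by role) in the 6 comparisons with Control (columns), on a colour scale centred on 0, with a dot where limma called the gene. HROB has a dot in all 6 columns with changes of 1.32 to 1.98, and RAD50 has its lowest value, -1.43, at Cis 12 h.

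The complex that first binds broken ends was the part of the pathway that cisplatin lowered most at 12 h. RAD50, which tethers the ends, read 10.31, 10.41 and 10.38 in Control and 8.63, 9.08 and 9.11 at Cis 12 h. It read 9.01, 9.16 and 9.23 at Cis/TM 12 h, and 9.69 and 9.64 at TM 12 h. All 8 treated arrays of 12 h lay below every Control array. RAD50 fell by 1.43 (SE 0.12, adjusted p = 1.03e-08) with Cis, by 1.23 (SE 0.12, adjusted p = 8.46e-08) with Cis/TM and by 0.70 (SE 0.13, adjusted p = 0.000774) with TM. At 24 h its values were 9.86, 9.72 and 9.91 with Cis, 9.77, 9.89 and 10.09 with TM, and 10.2, 10.16 and 10.11 with Cis/TM, all still under Control, and the changes of -0.54, -0.45 and -0.21 did not pass the fold threshold. MRE11, the nuclease of the complex, read 7.58, 7.53 and 7.52 in Control and 6.3, 6.9 and 6.8 at Cis 12 h, a fall of 0.88 (SE 0.12, adjusted p = 7.36e-06). At Cis/TM 12 h it read 7.07, 7.09 and 7.14, below Control on each array, and the change of -0.45 was under the fold threshold. Its values were 7.92 and 7.76 at TM 12 h and 7.63, 7.88 and 7.74 at TM 24 h. At 24 h they were 7.99, 7.76 and 7.78 with Cis and 8.08, 8.06 and 8.08 with Cis/TM, so MRE11 stood below Control at 12 h and above it at 24 h under both cisplatin treatments. NBN, which carries the signal to the damage kinase, changed by -0.51 at Cis 12 h and by -0.18 to 0.06 elsewhere, and was not called.

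BRCA1, which directs end preparation and loads the repair machinery with BARD1 and PALB2, was upregulated by both cisplatin treatments at 24 h. It read 7.73, 8.23 and 8.22 in Control, 9.19, 9.01 and 9.04 at Cis 24 h and 9.25, 9.14 and 9.1 at Cis/TM 24 h. Every one of these 6 treated arrays was above every Control array, by 1.02 (SE 0.15, adjusted p = 4.21e-05) for Cis and 1.10 (SE 0.15, adjusted p = 6.69e-05) for Cis/TM. At 12 h it read 7.23, 7.86 and 7.67 with Cis and 8.26, 8.05 and 8.18 with Cis/TM, and both groups overlapped Control. TM gave 8.51 and 8.56 at 12 h and 8.16, 8.48 and 8.6 at 24 h, with changes of 0.47 and 0.36 that were not called. BARD1, the ubiquitin ligase partner of BRCA1, changed by -0.34 to 0.45, and PALB2, the bridge between BRCA1 and recombinase loading, by 0.21 to 0.49, with no call.

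The paralogs that stabilise the recombinase filament did not move as a group. RAD51B read 5.3, 5.39 and 5.61 in Control, 6.18 and 6.06 at TM 12 h and 5.75, 6.06 and 6.35 at TM 24 h. With Cis it read 4.7, 4.91 and 5.48 at 12 h and 4.7, 4.27 and 4.95 at 24 h. With Cis/TM it read 5.11, 4.63 and 4.76 at 12 h and 4.91, 5.08 and 5.06 at 24 h. TM arrays were thus all above Control and arrays with cisplatin nearly all below it, with array C of Cis 12 h inside the range of Control. It rose by 0.69 (adjusted p = 0.0264) and 0.62 (adjusted p = 0.0291) with TM at 12 and 24 h, and fell by 0.79 (SE 0.20, adjusted p = 0.00366) at Cis 24 h and by 0.60 (adjusted p = 0.0172) at Cis/TM 12 h. The TM calls were lost under all 3 other scalings and without Control A, without Control B and without single arrays of their own groups. Without Control A or B the adjusted p was 0.0694 and 0.0544 at 12 h and 0.0849 and 0.065 at 24 h. The Cis/TM 12 h call was lost without Control C or either of arrays B and C of its own group, with changes of -0.51, -0.50 and -0.56. XRCC2, another paralog, read 6.31, 6.78 and 6.84 in Control, 7.73 and 7.8 at TM 12 h and 7.44, 7.61 and 7.77 at TM 24 h. Its values with Cis were 6.04, 7.02 and 6.8 at 12 h and 7.59, 7.23 and 7.38 at 24 h, and with Cis/TM 6.89, 6.75 and 7.25 at 12 h and 7.23, 7.24 and 7.16 at 24 h. Both TM groups and both cisplatin groups of 24 h were above Control throughout. XRCC2 rose by 1.12 (SE 0.22, adjusted p = 0.00099) at TM 12 h, 0.96 (adjusted p = 0.00177) at TM 24 h and 0.76 (adjusted p = 0.00508) at Cis 24 h. The last of these was 0.50 under quantile normalization and no longer called. RAD51C changed by -0.25 to 0.56 and XRCC3 by 0.07 to 0.53, and neither was called.

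RAD54L, a translocase that helps the filament open the intact duplex, was up in all 6 comparisons. It read 5.46, 6.07 and 5.84 in Control, 6.2, 6.67 and 6.58 at Cis 12 h and 7.45, 7.24 and 6.93 at Cis 24 h. It read 7.06 and 6.85 at TM 12 h, 6.55, 6.67 and 6.82 at TM 24 h, 6.74, 6.32 and 6.64 at Cis/TM 12 h and 6.86, 6.92 and 6.59 at Cis/TM 24 h. The lowest treated array, 6.2 at Cis 12 h, was above the highest Control array, 6.07. The rise was largest at Cis 24 h (1.42, SE 0.17, adjusted p = 3.09e-06), followed by TM 12 h (1.16, SE 0.19, adjusted p = 0.000192), Cis/TM 24 h (1.0, adjusted p = 0.000425), TM 24 h (0.89, adjusted p = 0.00103), Cis/TM 12 h (0.78, adjusted p = 0.000864) and Cis 12 h (0.69, adjusted p = 0.00225). Control A was the low array of its group, and without it the change at Cis 12 h was 0.52 and not called. The 3 other scalings also took it under the fold threshold, to 0.42 to 0.54. RAD54B, a related translocase, rose by 0.70 at Cis 24 h, 0.68 at TM 12 h, 0.66 at TM 24 h and 0.64 at Cis/TM 24 h, and the last 3 were lost without Control B (0.58, 0.56 and 0.54). All 4 were lost under quantile normalization and with the trend against level taken out. RAD52, which anneals single strands, changed by 0.02 to 0.34 and was not called.

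HROB, which brings the MCM8 and MCM9 helicase to sites of recombination, had the largest rise of the members in every comparison with Control. It read 5.41, 5.35 and 5.16 in Control. With Cis it read 6.59, 7.11 and 6.92 at 12 h and 7.46, 7.37 and 7.04 at 24 h. With TM it read 6.82 and 6.77 at 12 h and 6.5, 6.51 and 6.86 at 24 h, and with Cis/TM 7.05, 6.73 and 7.0 at 12 h and 6.93, 6.84 and 7.05 at 24 h. All 17 treated arrays lay more than 1 log2 unit above the highest Control array, and within the treated groups the values spanned less than 1 unit. The changes were 1.57 (SE 0.14, adjusted p = 3.08e-08) at Cis 12 h, 1.98 (SE 0.14, adjusted p = 8.93e-09) at Cis 24 h, 1.49 (SE 0.16, adjusted p = 4.08e-06) at TM 12 h, 1.32 (SE 0.14, adjusted p = 7.47e-06) at TM 24 h, 1.62 (SE 0.14, adjusted p = 2.85e-08) at Cis/TM 12 h and 1.64 (SE 0.14, adjusted p = 3.92e-07) at Cis/TM 24 h. Ranked by change among the 18417 genes, HROB stood at place 279, 14, 54, 24, 216 and 6 from the top in that order. It was called in all 6 under every alternative run, with changes from 1.20 to 2.11.

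**Figure D3:**
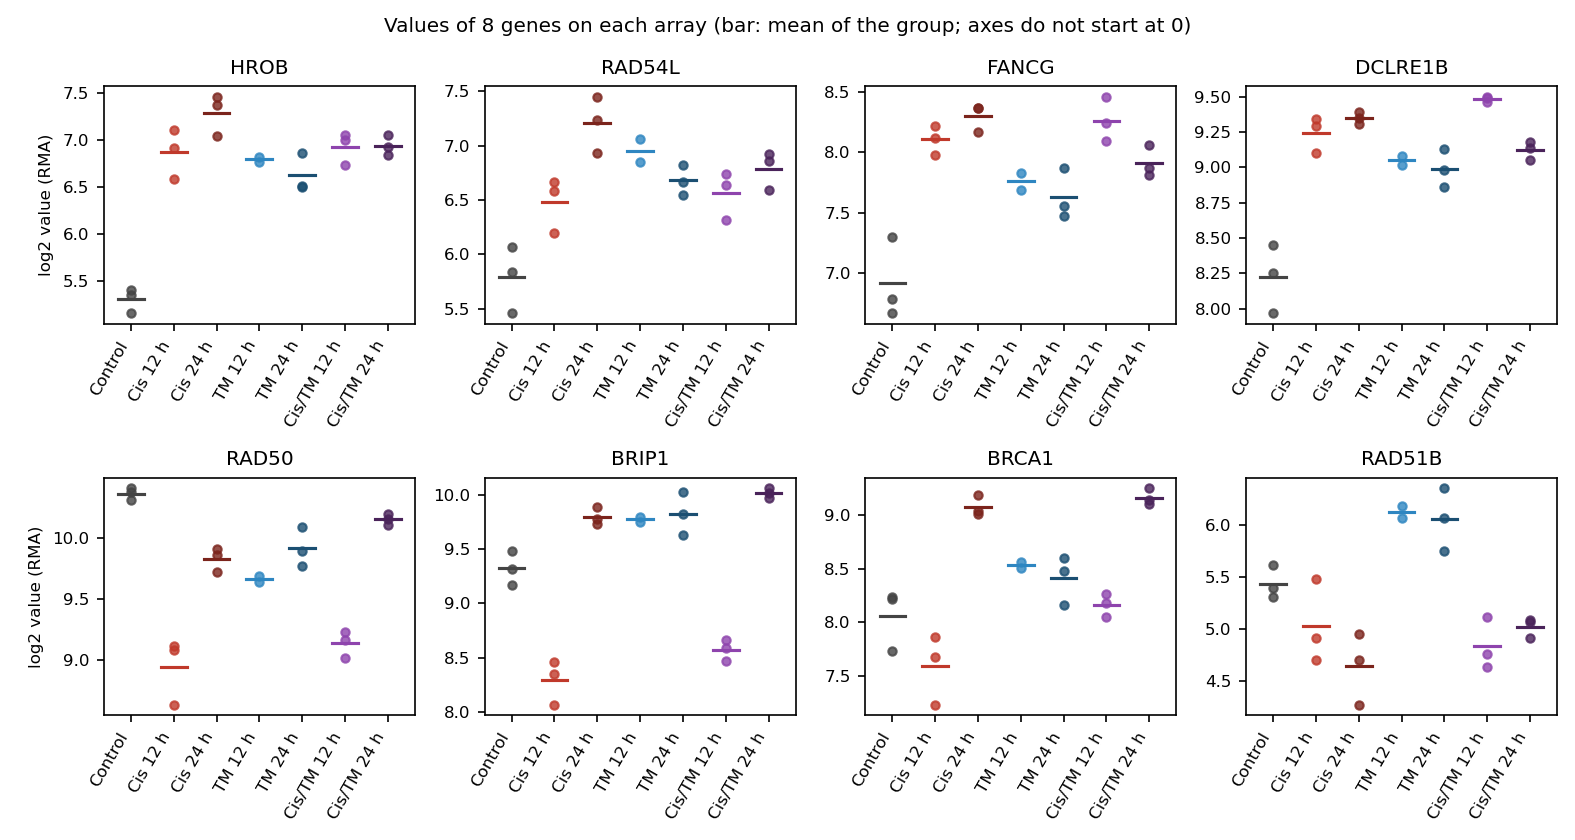
Log2 expression on each of the 20 arrays (points) with the group mean (bar) for HROB, RAD54L, FANCG, DCLRE1B, RAD50, BRIP1, BRCA1 and RAD51B in the 7 groups. HROB reads 5.16 to 5.41 in Control and 6.5 to 7.46 in the treated groups, RAD50 is lowest at Cis 12 h (8.63 to 9.11), and RAD51B lies above Control with TM and mostly below it in the groups that received cisplatin.

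The enzymes that dissolve joined DNA molecules rose in part. TOP3A, the topoisomerase of this complex, read 6.81, 7.04 and 7.63 in Control, 7.76, 7.98 and 7.88 at Cis 12 h and 8.3, 8.18 and 7.95 at Cis 24 h. It read 8.2 and 8.23 at TM 12 h, 7.92, 7.96 and 8.1 at TM 24 h, 8.05, 7.85 and 8.1 at Cis/TM 12 h and 7.86, 7.54 and 7.89 at Cis/TM 24 h. Control arrays were spread over more than 0.8, and array B of Cis/TM 24 h fell inside their range. TOP3A rose by 1.05 (SE 0.18, adjusted p = 0.00027) at TM 12 h, 0.99 (adjusted p = 8.12e-05) at Cis 24 h, 0.84 at Cis/TM 12 h, 0.83 at TM 24 h, 0.72 at Cis 12 h and 0.60 (adjusted p = 0.0116) at Cis/TM 24 h. The last was lost under all 3 other scalings and without 4 single arrays, among them Control A (0.43, adjusted p = 0.0659), and the Cis 12 h call was lost under those scalings and without Control A (0.54). BLM, the helicase of the complex, read 8.88, 9.07 and 9.11 in Control, 9.96, 9.84 and 9.77 at Cis 24 h and 9.94, 9.88 and 9.86 at Cis/TM 24 h. At 12 h it read 8.12, 8.75 and 8.49 with Cis and 8.82, 8.87 and 8.82 with Cis/TM. TM gave 9.65 and 9.59 at 12 h and 9.52, 9.51 and 9.66 at 24 h. BLM therefore lay below Control in both cisplatin groups of 12 h and above it in the other 4 groups. The rises at Cis 24 h (0.84, SE 0.12, adjusted p = 2.52e-05), Cis/TM 24 h (0.88, SE 0.12, adjusted p = 6.11e-05) and TM 12 h (0.60, adjusted p = 0.00286) were called, and the last was lost without Control A (0.53), without array A of its own group (0.57) or under the other scalings. RMI1, a scaffold of the complex, rose by 0.60 at Cis/TM 24 h, a call lost without Control A (0.55), without Control B (0.54) and under the 3 other scalings, and RMI2, its partner, changed by -0.19 to 0.15.

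Among the nucleases that cut joined DNA, EME1 was upregulated and its partner was not called. EME1 read 6.53, 7.24 and 6.39 in Control, 7.41, 8.0 and 7.67 at Cis 12 h and 8.17, 8.04 and 8.0 at Cis 24 h. With Cis/TM it read 8.02, 7.67 and 7.93 at 12 h and 8.02, 7.86 and 7.55 at 24 h, and with TM 7.57 and 7.15 at 12 h and 7.1, 7.12 and 7.38 at 24 h. All arrays that received cisplatin were above the highest Control array, whereas both TM groups overlapped it. The rise was 0.97 (SE 0.19, adjusted p = 0.000338) at Cis 12 h, 1.35 (adjusted p = 2.34e-05) at Cis 24 h, 1.15 (adjusted p = 6.46e-05) at Cis/TM 12 h and 1.09 (adjusted p = 0.000625) at Cis/TM 24 h. A rise of 0.64 at TM 12 h (adjusted p = 0.0353) was lost under all 3 scalings, with the replicate letter as a block (0.60, adjusted p = 0.0623) and without Control A, Control C or array A of TM 12 h (0.55, 0.47 and 0.43). MUS81, the catalytic partner of EME1, changed by 0.09 to 0.28, SLX4, a scaffold for several nucleases, by 0.07 to 0.33, and GEN1, which cuts crossed-strand junctions, by -0.52 to 0.46, and none of them was called against Control.

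In the Fanconi core complex and its anchor, FANCG rose in all 6 comparisons and FANCM fell in 1. FANCG read 6.79, 7.3 and 6.67 in Control, 7.98, 8.22 and 8.12 at Cis 12 h and 8.37, 8.37 and 8.17 at Cis 24 h. It read 7.83 and 7.69 at TM 12 h, 7.56, 7.47 and 7.87 at TM 24 h, 8.46, 8.09 and 8.24 at Cis/TM 12 h and 8.06, 7.87 and 7.81 at Cis/TM 24 h. Every treated array exceeded the highest Control array, which was 7.3. The rise was 1.18 (SE 0.15, adjusted p = 1.82e-06) at Cis 12 h, 1.38 (adjusted p = 9.14e-07) at Cis 24 h, 1.34 (adjusted p = 4.7e-07) at Cis/TM 12 h, 0.99 (adjusted p = 0.000132) at Cis/TM 24 h, 0.84 (adjusted p = 0.00109) at TM 12 h and 0.71 (adjusted p = 0.00221) at TM 24 h. Quantile normalization took both TM changes under the fold threshold (0.57 and 0.54), and the one at 24 h was also lost without Control C (0.58). FANCB, a core subunit that helps activate the ligase, read 6.42, 6.64 and 6.71 in Control, 6.44, 7.28 and 7.01 at Cis 12 h and 7.81, 7.66 and 7.64 at Cis 24 h. It read 7.79 and 7.44 at TM 12 h, 6.95, 7.66 and 7.59 at TM 24 h, 7.35, 7.21 and 7.39 at Cis/TM 12 h and 7.78, 7.55 and 7.63 at Cis/TM 24 h. FANCB overlapped Control at Cis 12 h and was above it in the other 5 groups, with rises of 1.11 (Cis 24 h, adjusted p = 0.000124), 1.03 (TM 12 h, adjusted p = 0.00136), 0.81 (TM 24 h, adjusted p = 0.00452), 0.73 (Cis/TM 12 h, adjusted p = 0.00346) and 1.06 (Cis/TM 24 h, adjusted p = 0.000586). Its Cis/TM 12 h change was 0.45 under quantile normalization and not called. FANCM, the translocase that anchors the complex to the fork, read 8.56, 8.86 and 8.93 in Control and 7.37, 8.03 and 8.35 at Cis 12 h, where array A was the lowest, and fell by 0.87 (SE 0.17, adjusted p = 0.000376). It read 8.44, 8.27 and 8.34 at Cis/TM 12 h and 8.72 to 9.12 in the 24 h and TM groups, none of them called.

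The remaining core subunits gave fewer calls. FANCE, which links the core to its substrate, rose by 0.84 (adjusted p = 0.00349) at Cis 12 h, 0.79 (adjusted p = 0.00763) at Cis 24 h, 0.91 (adjusted p = 0.00201) at Cis/TM 12 h and 0.68 (adjusted p = 0.0481) at TM 12 h. Its TM 12 h call was lost in 12 of the 20 fits that left out 1 array and with the replicate letter as a block (0.67, adjusted p = 0.0697), and its Cis 24 h call without Control A (0.57, adjusted p = 0.0528). FANCC, a core subunit, rose by 1.0 (adjusted p = 0.00179) at TM 12 h, 0.75 (adjusted p = 0.00821) at TM 24 h and 0.67 (adjusted p = 0.0171) at Cis/TM 24 h, the latter 2 with arrays that overlapped Control and calls that were lost without Control B (0.55 and 0.47). FANCF, the adaptor of the core, changed by -0.55 to -0.18 and FANCL, the ligase itself, by -0.51 to 0.45, with no call against Control.

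FANCI, which is ubiquitinated together with its partner, was down at 12 h and up at 24 h under Cis. It read 9.47, 9.28 and 9.41 in Control, 8.29, 8.85 and 8.73 at Cis 12 h and 10.14, 10.02 and 10.04 at Cis 24 h. With Cis/TM it read 9.06, 9.04 and 9.05 at 12 h and 10.13, 10.21 and 10.19 at 24 h, and with TM 9.63 and 9.56 at 12 h and 9.58, 9.6 and 9.6 at 24 h. None of the treated groups overlapped Control. FANCI fell by 0.77 (SE 0.11, adjusted p = 1.13e-05) at Cis 12 h and rose by 0.68 (adjusted p = 9.96e-05) at Cis 24 h and 0.79 (adjusted p = 7.88e-05) at Cis/TM 24 h, and the Cis 24 h rise was 0.57 under quantile normalization, just under the threshold. UBE2T, the ubiquitin-conjugating enzyme that works with FANCL, rose by 0.70 (SE 0.09, adjusted p = 4.97e-06) at Cis 24 h and by 0.27 to 0.53 in the other comparisons, which were not called.

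BRIP1, a helicase that binds BRCA1, also lay below Control at 12 h and above it at 24 h under both cisplatin treatments. It read 9.32, 9.17 and 9.48 in Control, 8.07, 8.46 and 8.35 at Cis 12 h and 8.47, 8.59 and 8.66 at Cis/TM 12 h. At 24 h it read 9.89, 9.73 and 9.78 with Cis and 9.97, 10.02 and 10.06 with Cis/TM, and TM gave 9.8 and 9.75 at 12 h and 9.63, 10.03 and 9.82 at 24 h. BRIP1 was below Control on all 6 cisplatin arrays of 12 h and above it on all other treated arrays. It fell by 1.03 (SE 0.12, adjusted p = 5.86e-07) at Cis 12 h and by 0.75 (SE 0.12, adjusted p = 3.12e-05) at Cis/TM 12 h, and rose by 0.70 (SE 0.12, adjusted p = 0.000427) at Cis/TM 24 h. DCLRE1B, a nuclease of crosslinks and telomeres also called Apollo, read 7.97, 8.25 and 8.45 in Control, 9.1, 9.34 and 9.29 at Cis 12 h and 9.39, 9.35 and 9.31 at Cis 24 h. It read 9.08 and 9.02 at TM 12 h, 8.86, 8.98 and 9.13 at TM 24 h, 9.46, 9.5 and 9.49 at Cis/TM 12 h and 9.18, 9.05 and 9.14 at Cis/TM 24 h. All 17 treated arrays were above Control, with the highest values at Cis/TM 12 h. DCLRE1B rose by 1.02 (SE 0.11, adjusted p = 2.72e-07) at Cis 12 h, 1.13 (adjusted p = 3.03e-07) at Cis 24 h, 0.83 (adjusted p = 8.87e-05) at TM 12 h, 0.77 (adjusted p = 9.05e-05) at TM 24 h, 1.26 (adjusted p = 2.7e-08) at Cis/TM 12 h and 0.90 (adjusted p = 1.72e-05) at Cis/TM 24 h. These 6 calls held under every alternative run, with changes from 0.63 to 1.37. FAN1, a nuclease recruited by ubiquitinated Fanconi proteins, rose by 0.93 (SE 0.17, adjusted p = 0.000154) at Cis/TM 12 h and by 0.38 to 0.56 elsewhere without a call. DCLRE1A, an exonuclease that digests past a crosslink, changed by 0.06 to 0.50 and was not called.

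Whether TM changed the response of these genes to cisplatin was read from Cis/TM against Cis at the same time, which does not use Control. No member was called at 12 h, where 0% of all genes were, and none at 24 h, where 1.5% were. At 12 h the differences leaned above 0, with 31 of the 35 positive where 47% of all genes were, and a median of 0.23 where that of all genes was -0.01. Among the 9208 bright genes 5927 were positive, with a median of 0.07, so genes of that level share part of the lean. Of the 5782 genes that span more than 50 kb, 3508 were positive. The median of the members was 0.28 with median centring, 0.14 with quantile normalization and 0.15, with 27 positive, without array A of Cis 12 h. The differences of the members ran from -0.19 to 0.58, with 95% intervals that together spanned -0.60 to 0.90. Of the 35 members, 17 had an unadjusted p under 0.05 and the smallest adjusted p was 0.286. The share of all genes with such a p was not counted, so the 17 are not read as a trait of the members. At 24 h 20 of the 35 were positive with a median of 0.04, where 47.9% of all genes and 3484 of the 9208 bright genes were positive. The differences of the members ran from -0.46 to 0.37, with intervals between -0.92 and 0.78. An unadjusted p under 0.05 was found for 8 members, and this too was not counted over all genes. XRCC3 was the single member with an adjusted p under the threshold at 24 h (0.0434), with a change of -0.46 that was under the fold threshold. The intervals therefore leave room for differences past the fold threshold in either direction.

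The addition of cisplatin to TM was read from Cis/TM against TM. At 12 h, 6 members were down and none was up, against 6.98% and 6.61% of all genes. BRIP1 was lower by 1.21 (SE 0.13, adjusted p = 1.07e-06), RAD51B by 1.29 (adjusted p = 0.000187) and BLM by 0.78 (adjusted p = 0.000217), and FANCC, XRCC2 and MRE11 were also down. Of these, 5 are among the 15 members that span more than 50 kb (33.3%), beside 20.5% of all genes of that length and 12.1% of bright genes. Cis against TM at 12 h had 13 members down and none up, against 10.3% and 6.9% of all genes. Bright genes were 18.3% down and 11% up. Of the 15 members over 50 kb 12 were down (80%), beside 28.6% of all genes of that length. Of the 20 shorter members 1 was down (5%), beside 1.86% of shorter genes. The smallest p were those of BRIP1 (-1.48, SE 0.13, adjusted p = 5.37e-08), BLM (-1.17, adjusted p = 1.52e-06) and MRE11 (-1.17, adjusted p = 1.83e-06), and FANCC fell by 1.39. Without array A of Cis 12 h, 10 members were called in that comparison. At 24 h, Cis/TM against TM gave 2 members up and 1 down, against 3.53% and 2.75% of all genes: BRCA1 was higher by 0.75 (adjusted p = 0.00221), EME1 higher by 0.61 (adjusted p = 0.0415) and RAD51B lower by 1.04 (adjusted p = 0.0011). Cis against TM at 24 h gave 4 up and 1 down, against 5.32% and 3.23% of all genes, with RAD51B lower by 1.41 (SE 0.20, adjusted p = 3.37e-05), HROB higher by 0.67 (adjusted p = 0.00234), FANCG higher by 0.67 (adjusted p = 0.00288), and EME1 and BRCA1 also higher. The TM 12 h group has 2 arrays, so its comparisons carry a median SE of 0.15 where the others carry 0.14.

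Between 12 and 24 h of Cis, 16 members were up, none was down and 19 were not called, against 7.21% up and 3.42% down among all genes. Between 12 and 24 h of Cis/TM, 10 were up, none was down and 25 were not called, against 5.67% and 8.07%, and 10 of the 35 changes were negative. The members' shares up were 45.7% and 28.6%. Bright genes were 13.6% up under Cis and 10.2% up under Cis/TM. Of the cell cycle lists read below, the G2/M genes were 50% and 35% up and the G1/S genes 14.3% and 4.76%. A rise between the times under Cis was thus shared with the G2/M genes, whose median was 0.52 beside 0.43 for the members. No member was called between 12 and 24 h of TM, where 0.00543% of all genes were, none had an unadjusted p under 0.05, and the differences ran from -0.28 to 0.25 with 95% intervals between -0.78 and 0.53. The time courses were not tested against each other. FANCI (1.45, SE 0.11, adjusted p = 6.43e-08), BRIP1 (1.5, SE 0.12, adjusted p = 7.28e-08) and BLM (1.40, SE 0.12, adjusted p = 1.93e-07) had the smallest p under Cis. The same genes had the smallest p under Cis/TM, with 1.45, 1.13 and 1.05 for BRIP1, FANCI and BLM. BRCA1 rose between the times by 1.49 under Cis and 1.0 under Cis/TM, MRE11 by 1.18 and 0.97, and RAD50 by 0.89 and 1.02. Against Control, 7 members were up with Cis at both times, 7 were up at 24 h and not at 12 h, and 5 were down at 12 h and not at 24 h, beside 8.82%, 2.66% and 6.99% of all genes. With Cis/TM the counts were 7, 7 and 3, beside 3.44%, 1.1% and 6.62%. With TM, 10 were up at both times and 3 at 12 h and not at 24 h, beside 4.86% and 4.13%. Without array A of Cis 12 h, which had the lowest mean of the members, 5 members were still down at Cis 12 h against Control, and 13 rose from 12 to 24 h of Cis.

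The length of a member's gene on the genome went with its change at 12 h of cisplatin. Gene spans were taken from RefSeq (GRCh38.p14) for all 35 members and 99.8% of the genes tested, and 15 members span more than 50 kb, among them RAD51B (863.3 kb), BRIP1 (184.4 kb), BRCA1 (126.0 kb), MRE11 (96.8 kb) and RAD50 (89.4 kb). Of these 15, none was up and 5 were down at Cis 12 h, 33.3%, beside 2.46% up and 27.5% down among the 5782 genes of that length. Of the 20 shorter members, such as HROB (20.5 kb), DCLRE1B (9.5 kb) and FANCG (6.1 kb), 7 were up and none was down, 35% up, beside 20.4% up and 3.08% down among the 12607 shorter genes. At Cis/TM 12 h, 1 of the longer members was up and 3 were down, and 8 of the shorter were up and none was down, beside 3.15% and 21.3% of longer and 20.7% and 2.7% of shorter genes. The rise from 12 to 24 h of Cis took in 12 of the 15 longer members, 80%, beside 18.6% of longer genes, and 4 of the 20 shorter, 20%, beside 1.98% of shorter genes. All of the 5 members down at Cis 12 h are thus long and all of the 7 up are short, a split of the same direction as over all genes. Both contrasts use the 3 Cis 12 h arrays. The split was read from the values as deposited. With median centring 5 members were up and 10 down at Cis 12 h, and the split by length was not read under that scaling. Spearman's rho between span and log2 change over the 35 members was -0.65 at Cis 12 h and -0.56 at Cis/TM 12 h, beside -0.39 and -0.31 over 18389 genes, and between -0.16 and 0.11 in the other 4 comparisons. These are descriptions across genes that share the same arrays.

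**Figure D4:**
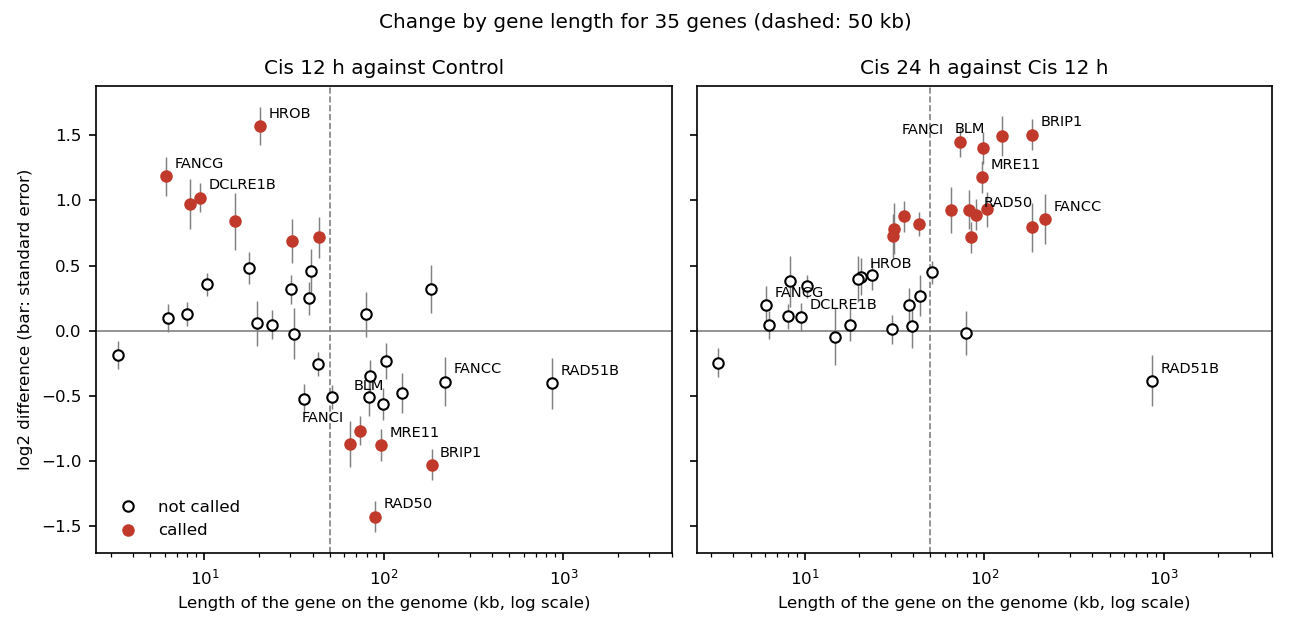
Log2 change of each of the 35 members (points, with SE bars) against the span of its gene in kb on a log axis, for Cis 12 h against Control and for Cis 24 h against Cis 12 h, with a dashed line at 50 kb. In the values as deposited, no member left of the line was down at Cis 12 h and none right of it was up. Of the 15 members right of the line, 12 rose from 12 to 24 h.

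Averaged over the 15 longer members, the level was 7.91 ± 0.11 (SD over arrays, n = 3) in Control, 7.38 ± 0.27 (n = 3) at Cis 12 h and 7.70 ± 0.03 (n = 3) at Cis/TM 12 h, and 8.22 to 8.37 in the other 4 groups. The arrays of Cis 12 h and Cis/TM 12 h all lay below the lowest Control array (7.80), and Cis 12 h was spread most, from 7.07 on array A to 7.55. Averaged over the 20 shorter members it was 6.96 ± 0.11 (n = 3) in Control and 7.36 to 7.66 in the 6 treated groups. At Cis 24 h, 5 of the longer members were up and 1 down, beside 4.06% and 11.5% of longer genes, and 9 of the shorter were up and none down, beside 14.9% and 1.87% of shorter genes. At Cis/TM 24 h, 7 of the longer were up, 46.7%, beside 2.33% of longer genes, and 7 of the shorter, 35%, beside 5.56% of shorter genes, with none down in either. At TM 12 h, 5 of the longer were up and 1 down, beside 5.86% and 3.93%, and 8 of the shorter were up and none down, beside 10.4% and 2.74%. At TM 24 h, 4 of the longer and 6 of the shorter were up and none was down, beside 3.29% and 6.02% up.

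The joint effect of the drugs was compared with the sum of their separate log2 changes against Control. HROB, RAD54L, TOP3A and DCLRE1B, which both drugs raised, rose less under Cis/TM than the sum at both times. At 12 h, 5 members departed from the sum, where 10.3% of all genes did. Of these 1 was above and 4 were below it, against 3.43% and 6.87% of all genes. At 24 h, 11 departed, where 16.5% of all genes did, 2 above and 9 below, against 5.08% and 11.4%. HROB had a sum of 3.07 and an observed change of 1.62 at 12 h, and 3.30 and 1.64 at 24 h, beside 1.57 and 1.49, and 1.98 and 1.32, for Cis and TM alone. RAD54L had sums of 1.85 and 2.30 and observed changes of 0.78 and 1.0, and DCLRE1B sums of 1.85 and 1.89 and observed changes of 1.26 and 0.90. RAD50, which each drug lowered at 12 h, had sums of -2.12 and -0.98 and observed changes of -1.23 and -0.21, a departure above the sum of 0.89 (SE 0.18, adjusted p = 0.00301) and 0.77 (SE 0.17, adjusted p = 0.00257). The 3 Control arrays enter both separate changes, so their spread is carried into the sum from both. So is any difference between Control and all treated cultures that is not an effect of a drug. For genes raised in every treated group, such a difference would also put the observed change below the sum. The design cannot tell it apart from a joint effect of the drugs. Among the bright genes described above 17.3% departed at 12 h and 26.2% at 24 h.

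**Figure D5:**
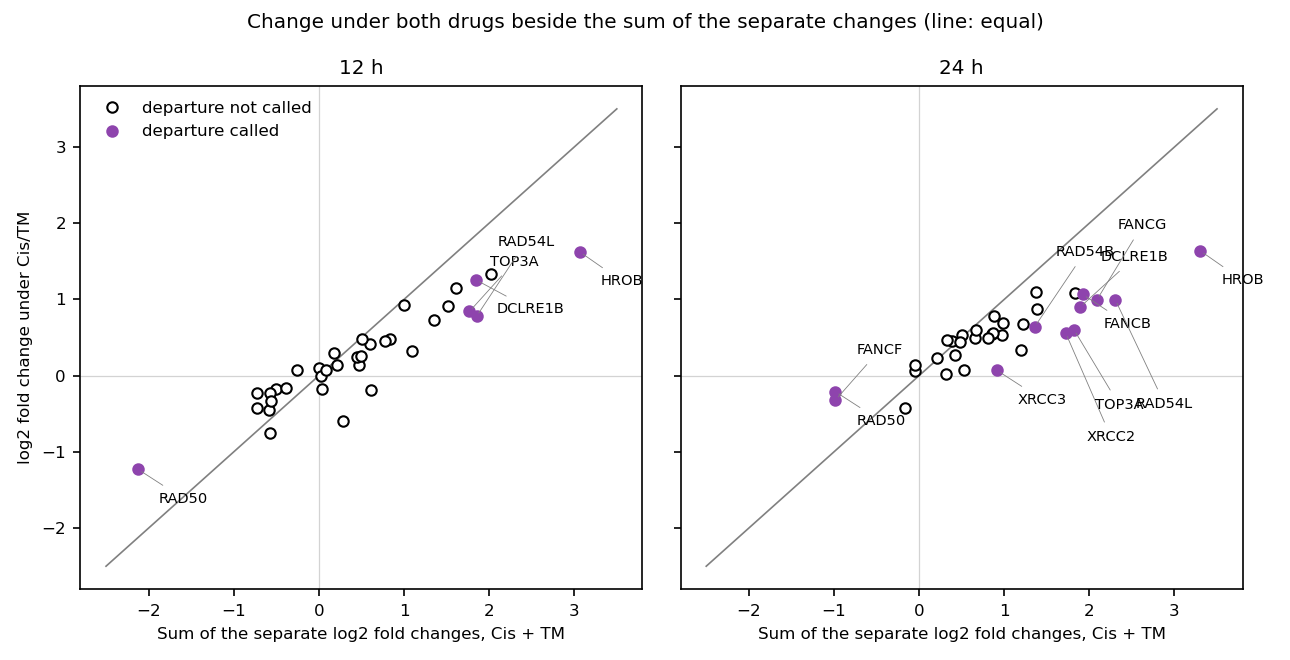
Observed log2 change under Cis/TM (vertical) against the sum of the separate changes under Cis and TM (horizontal) for the 35 members, at 12 h and at 24 h, with the line of equal values and the called departures marked. HROB lies at 3.07 and 1.62 at 12 h and at 3.30 and 1.64 at 24 h, well below the line, and RAD50 lies above it.

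Promoters were read for the members because many rose together. RefSeq windows from upstream of the start to just past it (GRCh38.p14) matched 31 of the 35 members, and RAD54B, FANCI, NBN and RMI2 have no entry. An E2F-like motif, TTTCCCGC, TTTGGCGC, TTTCGCGC or TTTGCCGC on either strand, was present in 5 of 31 members (16.1%: FANCC, GEN1, HROB, RMI1 and XRCC2), in 5.51% of the 14239 tested genes with a window and in 3.31% of all 35116 windows. The cell cycle element TTTGAA on either strand, which does not overlap those motifs in its letters, was present in 3 of 31 (9.68%: BRIP1, FANCC and UBE2T) and in 15.7% of tested genes and 15.2% of all windows. Of the 7 members up in 5 or 6 comparisons, 1, HROB, holds the E2F-like motif and none holds TTTGAA. Of the other holders of the E2F-like motif, XRCC2 and FANCC were each up in 3 comparisons, RMI1 in 1 and GEN1 in none. FANCC, GEN1 and RMI1 each have 2 windows, and in each gene only 1 of them holds the motif. The windows of HROB, the member with the largest rise, and of XRCC2 and FANCC, whose largest rises were with TM, are shown 5′ to 3′ on the strand of the gene with the E2F-like motifs in capitals. They lie at chr17:44141680-44141979 on the plus strand, chr7:152676092-152676391 on the minus strand and chr9:95317660-95317959 on the minus strand, and the first base of the motif is at -46 in HROB, at 22 in XRCC2 and at -172 and -46 in FANCC relative to the start. A match is a run of letters and does not show that a factor binds there.
HROB: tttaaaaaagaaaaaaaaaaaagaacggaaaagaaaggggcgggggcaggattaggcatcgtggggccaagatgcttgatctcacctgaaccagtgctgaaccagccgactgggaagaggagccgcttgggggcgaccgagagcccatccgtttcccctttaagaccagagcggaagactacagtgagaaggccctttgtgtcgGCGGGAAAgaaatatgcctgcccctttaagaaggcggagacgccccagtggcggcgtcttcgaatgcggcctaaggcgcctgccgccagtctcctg
XRCC2: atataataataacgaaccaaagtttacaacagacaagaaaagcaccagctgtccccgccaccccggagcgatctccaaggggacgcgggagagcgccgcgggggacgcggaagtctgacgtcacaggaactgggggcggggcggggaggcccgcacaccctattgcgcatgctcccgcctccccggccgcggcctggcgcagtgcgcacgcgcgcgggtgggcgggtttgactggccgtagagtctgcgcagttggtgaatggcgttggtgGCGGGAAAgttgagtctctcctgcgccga
FANCC: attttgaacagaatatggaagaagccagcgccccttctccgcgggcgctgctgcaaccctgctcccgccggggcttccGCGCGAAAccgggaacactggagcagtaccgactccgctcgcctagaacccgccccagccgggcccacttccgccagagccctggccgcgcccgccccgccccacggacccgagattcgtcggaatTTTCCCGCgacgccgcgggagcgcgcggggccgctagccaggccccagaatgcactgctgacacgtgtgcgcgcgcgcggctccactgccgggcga

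Other genes of the pathway, chosen like the members with earlier results of these data known, were read in the same comparisons. Of 41 measured genes, 9 were up and 8 down at Cis 12 h, 14 and 3 at Cis 24 h, 9 and 0 at TM 12 h, 5 and 1 at TM 24 h, 12 and 4 at Cis/TM 12 h, and 10 and 1 at Cis/TM 24 h. PSMC3IP, a partner of the recombinase, was up in all 6, by 1.82, 1.42, 0.64, 0.78, 1.83 and 1.10 in that order. EXO1, an exonuclease of end resection, rose in 5 and was at 0.57 at Cis 12 h, just under the threshold. FAAP24, a partner of FANCM, rose by 1.42 at Cis 12 h and 1.48 at Cis/TM 12 h. BABAM2, a subunit of the BRCA1-A complex that restrains resection, fell by 1.63 at Cis 24 h and 1.48 at Cis/TM 24 h. At Cis 12 h the 41 genes were 22% up and 19.5% down, beside 14.8% and 10.8% of all genes and 25.7% and 16.1% of bright genes. At the other 5 comparisons 34.1%, 22%, 12.2%, 29.3% and 24.4% were up, beside 11.5%, 8.99%, 5.16%, 15.2% and 4.54% of all genes. Of bright genes 21.1%, 16.8%, 9.61%, 27% and 8.29% were up, so the list stood little above them at TM 24 h and Cis/TM 12 h. The shares of the list that were down were 7.32%, 0%, 2.44%, 9.76% and 2.44%, beside 4.9%, 3.11%, 2.55%, 8.55% and 2.48% of all genes. Among 10 end joining genes, which repair breaks without a template, 2 were down and none up at both Cis 12 h and Cis/TM 12 h, none was called with TM, 1 was up and 1 down at Cis 24 h, and 1 was up at Cis/TM 24 h. The 2 down are 20% of the list, beside 10.8% of all genes at Cis 12 h and 8.55% at Cis/TM 12 h. XRCC4, a ligase cofactor, fell by 2.04 at Cis 12 h and 1.51 at Cis/TM 12 h, and PRKDC, the kinase of the pathway, by 1.11 and 0.94.

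Markers of cell cycle phase moved in the same samples as the repair genes, many of which are themselves expressed from late G1 into S phase. Of 21 G1/S genes, 9 were up and 1 down at Cis 12 h, 15 and 0 at Cis 24 h, 9 and 0 at TM 12 h, 8 and 0 at TM 24 h, 8 and 1 at Cis/TM 12 h, and 10 and 0 at Cis/TM 24 h, with medians of 0.39, 0.79, 0.56, 0.43, 0.50 and 0.50. The shares up were 42.9%, 71.4%, 42.9%, 38.1%, 38.1% and 47.6%, beside 14.8%, 11.5%, 8.99%, 5.16%, 15.2% and 4.54% of all genes. E2F1, the transcription factor of that phase, was up in all 6, by 1.51, 1.43, 0.69, 0.84, 1.36 and 1.13, and CCNE1, its cyclin, by 1.88 at Cis 12 h and 1.92 at Cis/TM 12 h. Of 20 G2/M genes, 1 was up and 8 down at Cis 12 h, 2 and 1 at Cis 24 h, 2 and 0 at TM 12 h, 1 and 0 at TM 24 h, 1 and 7 at Cis/TM 12 h, and 2 and 2 at Cis/TM 24 h. The shares down were 40% at Cis 12 h and 35% at Cis/TM 12 h, beside 10.8% and 8.55% of all genes. The shares up were 5%, 10%, 10%, 5%, 5% and 10% in the order of the 6 comparisons, near or below those of all genes at Cis 12 h, Cis 24 h, TM 12 h, TM 24 h and Cis/TM 12 h. CENPE, a mitotic motor, fell by 1.77 at Cis 12 h and AURKB, a mitotic kinase, rose by 0.98. The part of cell cycle phase in the changes of the repair genes was not tested.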

How the data were processed

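Total RNA of MDA-MB-231 cells was hybridised to 20 Affymetrix Human Gene 1.0 ST arrays in 7 groups, taken from the sample titles. The labels name Trizol extraction and the study's methods an RNeasy kit. The authors deposited log2 values made by RMA, per the submitters' processing notes, and these were used as deposited. Their version and the genome build of the array annotation are not given in the sources used here, so gene spans and promoter windows come from RefSeq (GRCh38.p14). RMA values carry no read depth, and the number of arrays limits the precision. Of 33297 transcript clusters, 21214 carry a gene symbol, 19460 of them a single symbol and 1754 several. Each gene was read from its single-symbol cluster with the highest mean, which gave 18417 genes and 1 cluster for each of the 35 members measured.

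A linear model with 7 group means was fitted in limma 3.58.1 under R 4.3.3, with 13 residual degrees of freedom, eBayes moderation and Benjamini-Hochberg adjustment over all 18417 genes of a comparison. A call needed a change of more than 1.5-fold with an adjusted p below 0.05, where the study names a p with the same threshold and fold and does not say whether it was adjusted. The members and lists were chosen with earlier results of these data known. Values on every array are given for the called members with the 4 largest rises and 4 largest falls in each comparison with Control, for those called in 5 or 6 of the 6, and for up to 3 called members with the smallest p in each other contrast. The other members, and genes of the lists beyond 4 called ones each, are given by ranges and counts. Alternatives were other scalings (median centring, quantile normalization, removal of the trend with level), a filter on low values, the mean of a gene's clusters, a variance trend, a fit of only the groups compared, the replicate letter as a block, the unadjusted p and leaving out each array. The scripts were tested on simulated data with known changes. The replicate letters were not used as pairs in the main fit. Over 57 pairs of arrays with the same letter, the correlation of their deviations from the group means had a median of 0.01 and ran from -0.42 to 0.61. Pairs with different letters were not compared, so these values cannot show whether the letters pair the arrays. ATRIP, CENPS, SLX1A, ZSWIM7 and RTEL1 of the wider pathway were not analysed here.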

Additional observations from a re-analysis of the deposited data

Results flagged for a closer look

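The members below departed from additive log2 changes, that is, the change under Cis/TM differed from the sum of the changes under Cis and under TM by limma's test of the interaction, at an adjusted p under 0.05 and a departure over 1.5-fold. At 12 h the departure was -1.44 for HROB (adjusted p = 0.000355), -1.07 for RAD54L (adjusted p = 0.00909), -0.93 for TOP3A (adjusted p = 0.0149) and -0.59 for DCLRE1B (adjusted p = 0.024), which both drugs raised, and 0.89 for RAD50 (adjusted p = 0.00301), which both lowered. At 24 h it was -1.67 for HROB (adjusted p = 1.95e-05), -1.31 for RAD54L (adjusted p = 0.000656), -1.22 for TOP3A (adjusted p = 0.000719), -0.99 for DCLRE1B (adjusted p = 0.000172) and -1.09 for FANCG (adjusted p = 0.00097), each of them called up by either drug alone. XRCC2 departed by -1.16, FANCB by -0.86 and RAD54B by -0.72 at 24 h, and these too were called up by either drug alone. XRCC3 departed by -0.85 at 24 h, with changes of 0.53, 0.39 and 0.07 under Cis, TM and Cis/TM that were not called. RAD50 departed by 0.77 and FANCF by 0.66 at 24 h, with separate changes under the fold threshold for both genes. Of all genes, 10.3% departed at 12 h and 16.5% at 24 h, so 5 of 35 and 11 of 35 members stand beside a common pattern of these arrays. A difference of the Control arrays from all treated arrays that is not an effect of a drug would also give departures. The design cannot tell it apart from an interaction of the drugs. The 12 h count ranged from 2 without array A of TM 12 h to 9 without array A of Cis 12 h.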

How the results depend on the processing

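Of 207 counts of called members recomputed under the alternatives other than leaving out an array, 196 stayed within 1.5 times the value reported and 11 did not. The unadjusted p can add calls and cannot remove them. The mean of a gene's clusters leaves the values of the 35 members unchanged, as each has 1 cluster. The 196 therefore include counts that could move little or only upward. With median centring 10 members were down at Cis 12 h, 2 at Cis 24 h, 2 at TM 12 h and 1 at TM 24 h. Quantile normalization gave 2 down at Cis 24 h, 7 up at TM 12 h and 3 calls for Cis 24 h against TM 24 h. With the trend against level taken out there were 2 down at Cis 24 h, 8 up at TM 12 h and 2 calls for Cis 24 h against TM 24 h. The unadjusted p gave 10 departures from additivity at 12 h. The causes of these shifts were not tested. With the replicate letter as a block 11 members were up at TM 12 h, where EME1 (0.60, adjusted p = 0.0623) and FANCE (0.67, adjusted p = 0.0697) were lost, and no other call against Control was lost.

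Leaving out each array in turn gave 5 to 8 up and 5 to 8 down at Cis 12 h (8 down without array B of that group), 13 to 17 up at Cis 24 h, 9 to 13 up and 1 to 2 down at TM 12 h (2 down without Control C or array B of TM 12 h), and 8 to 11 up and 0 to 1 down at TM 24 h (1 down without Control C or array C of TM 24 h). It gave 9 to 10 up and 2 to 3 down at Cis/TM 12 h (2 down without Control C or array B or C of that group) and 11 to 17 up at Cis/TM 24 h. Direct comparisons gave 5 to 7 calls (Cis/TM against TM, 12 h), 10 to 13 (Cis against TM, 12 h), 2 to 3 (Cis/TM against TM, 24 h, with 2 when any of 6 single arrays was left out), 4 to 6 (Cis against TM, 24 h), 13 to 16 (Cis, 24 against 12 h), 9 to 11 (Cis/TM, 24 against 12 h), and 2 to 9 and 10 to 13 departures from additivity at 12 and 24 h. Where TM 12 h was left with 1 array, that array was assumed to vary like the other groups.

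Of the 77 calls of a member against Control, 53 held under all alternatives, 60 held without any single array, 17 were lost without at least 1 array (11 of them without Control A and 9 without Control B), and 0 changed sign. Quantile normalization lost 18, the fit without that trend 18, median centring 9 and the fit of only the groups compared 8. The precision is set by 2 or 3 arrays a group, whose independence is not stated, and by Control arrays without a harvest time.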
